A study of Mus musculus with 2 samples.

Results

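Aminoacyl-tRNA synthetases were followed in mouse erythroid progenitors without the erythropoietin receptor, on 1 Affymetrix array at 0 h and 1 array at 3 h of culture. Members were taken by gene symbol, under a rule that uses no measured value but was chosen with earlier results of these data known. The symbol had to be a capital letter followed by ars, with or without a final 1 or 2, or Eprs, Farsa, Farsb or Tarsl2. This rule found 36 genes among the 17874 genes measured, each by 1 probe set, of which 20 are called cytosolic here and 16, with a final 2 in the symbol, mitochondrial. Tarsl2, which encodes a cytosolic paralog of the threonine enzyme, was kept with the cytosolic group in spite of its final 2. Kars and Gars were also kept there, although each gene makes both the cytosolic and the mitochondrial form of its enzyme. The aspartate enzymes were not analysed here.

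The cells were colony-forming unit erythroid (CFU-E) cells, which normally depend on erythropoietin. They came from livers of EpoR-/- BALB/c embryos at gestational day 13.5, in pools of 40 to 50 livers, after lysis of red cells and antibody removal of cells with surface markers of other blood lineages or of late erythroid cells; their purity is not stated. Both samples went through 1 h without growth factors. The 0 h sample was then lysed, and the 3 h sample was kept for 3 h in Panserin medium. For the 3 h sample the treatment label gives added growth factors, but by the protocol none were added, so time alone names them here. Epo stands in the genotype label where the protocol has its receptor, no array of receptor-bearing cells was used here, and a strain label is given for the 0 h sample alone. The only comparison is therefore 3 h against 0 h within this genotype, and with 1 array per time differences are given without error or test.

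An aminoacyl-tRNA synthetase joins an amino acid to the transfer RNA that carries its codon's complement, and so sets the genetic code. Animal cells hold separate sets for the cytosol and for mitochondria, all encoded in the nucleus. The enzymes fall into 2 structural classes with unrelated catalytic folds, and several cytosolic enzymes are held in a multisynthetase complex by the scaffold proteins AIMP1, AIMP2 and AIMP3. Cytosolic synthetase genes are known targets of the transcription factor ATF4, which is made when amino acids are short and the kinase GCN2 phosphorylates eIF2. ATF4 binds a composite site called CARE together with a C/EBP partner.

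To show where such letters occur among the members, windows of 300 bases (250 before and 50 after a gene's start) from RefSeq, build GRCm38.p6, were searched on both strands for TGATGNAA, a short form of CARE. A window was found for 27 of the 36 members, 13 cytosolic and 14 mitochondrial, and none for Cars, Hars, Hars2, Lars, Nars, Pars2, Rars, Vars and Wars. The letters occurred in 5 of the 13 cytosolic windows, in 0 of the 14 mitochondrial windows, and in 3.97% of all 32851 windows. Only 65.0% of the cytosolic members had a window, under the 80% needed to describe that group, so the cytosolic share cannot be compared with the share over all windows. The match nearest the start of each of the 5 genes is given below as 30 bases, 5′ to 3′ on the strand that reads TGATGNAA, with the matched letters in capitals. In Aars, Gars, Iars and Tars that strand is opposite to the gene's, and in Yars it is the gene's own.
Aars, chr8:111033840-111033869, minus strand, match from base 10 after the start: tcagagcgctcTGATGAAAagtgacccgct
Gars, chr6:55037960-55037989, minus strand, match from 30 bases before the start: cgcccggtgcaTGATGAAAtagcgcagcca
Iars, chr13:49682126-49682155, minus strand, match from base 8 after the start: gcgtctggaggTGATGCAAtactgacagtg
Tars, chr15:11399655-11399684, plus strand, match from 15 bases before the start: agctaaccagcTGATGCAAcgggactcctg
Yars, chr4:129189895-129189924, plus strand, match from base 4 after the start: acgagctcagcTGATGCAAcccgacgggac
A match is a run of letters and not a measured binding site. The E-box CACGTG, the letters bound by MYC and related factors, occurred in 5 of the 27 windows, those of Aars, Ears2, Farsb, Iars and Tars, and in 7.15% of all windows. Windows for 27 of 36 members are again under 80%, so these shares are given side by side with no comparison. The STAT letters TTCNNNGAA occurred in Aars, Kars and Nars2 (8.30% of all windows) and a short form of the interferon response element in Qars (3.44%).

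Values are log2 expression after RMA, and a difference is the 3 h value minus the 0 h value. Genes entered the counts if at least 1 of their values was at or above 5.70, here called the floor (the median over all gene values), and 9284 genes did. Among the 36 synthetases 34 reached it, each on both arrays. The exceptions were Farsa, the catalytic subunit of the cytosolic phenylalanine enzyme (4.70 and 4.29), and Mars2, the mitochondrial methionine enzyme (5.01 and 5.40). Such a value, from 1 probe set, leaves the gene's expression unknown.

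Values of the synthetases differed little between 0 h and 3 h. Of the 34, 22 were lower and 12 higher at 3 h, where 48.5% of all 9284 genes were lower, and their median difference was -0.05 against 0.01 for all genes. Only Nars2 was at least 1.5-fold lower, where 4.80% of all genes were, and none was at least 1.5-fold higher, where 6.94% were. None passed 2-fold in either direction, against 0.872% of all genes lower and 2.00% higher. Of the 34, 16 lay within 0.1 of 0, where 25.5% of all genes did.

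**Figure D1:**
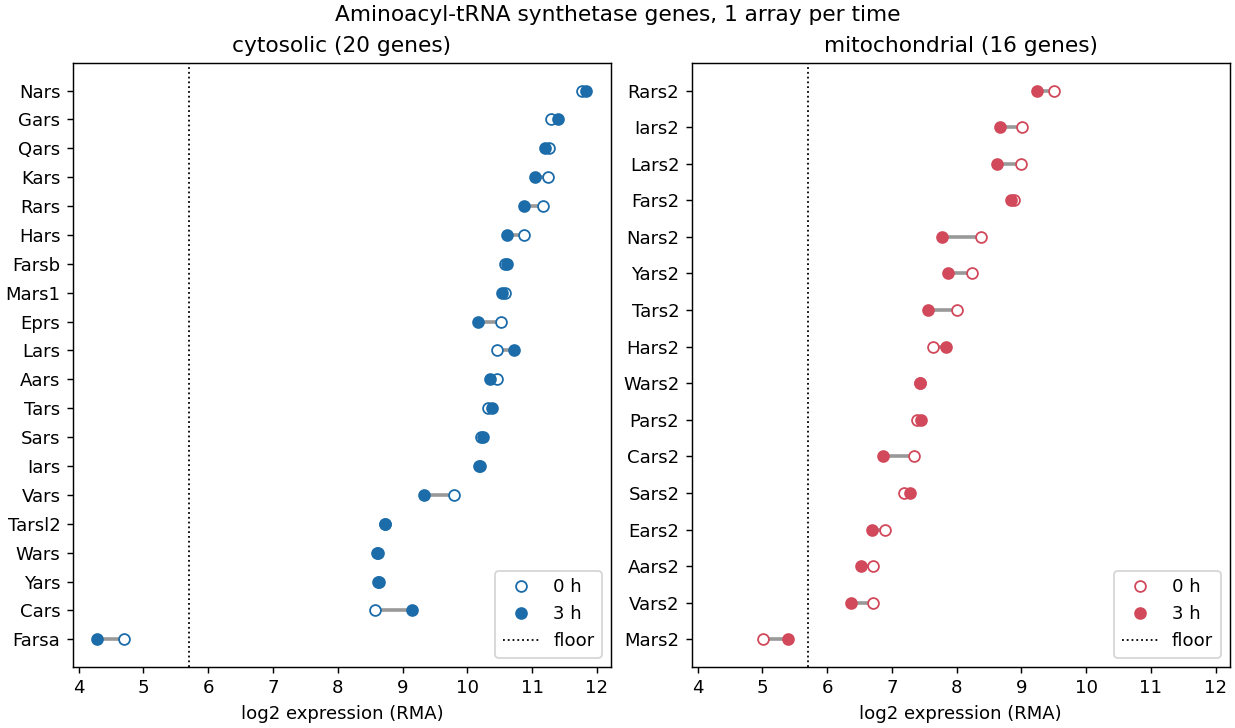
Log2 expression of the 20 cytosolic (left) and 16 mitochondrial (right) synthetase genes, sorted by the 0 h value, with open circles for the 0 h array and filled circles for the 3 h array. The dotted line is the floor of 5.70, and only Farsa and Mars2 lie below it.

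The 2 sets of enzymes differed in where their differences lay. The 19 cytosolic members at or above the floor had a median difference of -0.02, with 10 lower and 9 higher and a range of -0.47 to 0.57, and 12 of them lay within 0.1 of 0. The 15 mitochondrial members had a median of -0.25, with 12 lower and 3 higher and a range of -0.59 to 0.20, and 4 of them lay within 0.1 of 0. Of the 15 mitochondrial members 7 were lower by 0.3 or more, as were 2 of 19 cytosolic members and 16.9% of all genes. The mitochondrial median lay 0.23 below the cytosolic one. With the floor raised to the 75th percentile of all gene values, which leaves 7 mitochondrial members, the gap between the medians was -0.35. Of these 7, Nars2, Tars2 and Yars2 reached that floor through the 0 h array alone and so had to be lower.

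The probe sets of the 2 groups cover different stretches of signal, so each group was also set beside the genes of its own stretch, a comparison added after the values were seen. Means of the 2 arrays ran from 6.54 to 9.37 for the mitochondrial members, and of the 5288 genes in that stretch 47.5% were lower, with a median difference of 0.02. Of these genes 17.5% were lower by 0.3 or more, 4.95% at least 1.5-fold lower and 24.7% within 0.1 of 0. For the cytosolic members the means ran from 8.62 to 11.81, and of the 2923 genes there 52.3% were lower, with a median of -0.02. Of these, 16.8% were lower by 0.3 or more, 3.56% at least 1.5-fold lower and 28.9% within 0.1 of 0. The cytosolic median was thus that of the genes around it, and the mitochondrial median lay below that of its own.

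**Figure D2:**
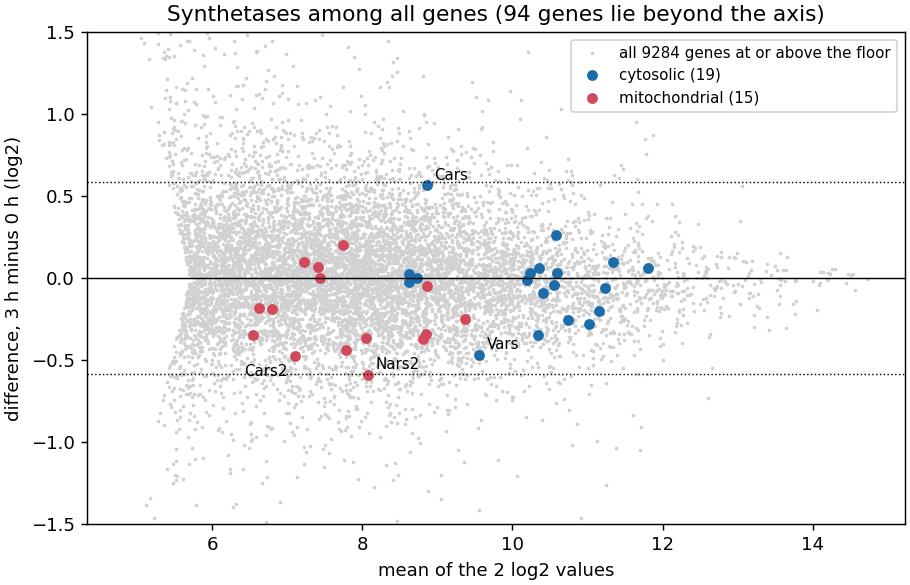
Difference of log2 values (3 h minus 0 h) against the mean of both values for all 9284 genes at or above the floor (grey), the 19 cytosolic (blue) and the 15 mitochondrial synthetases (red), with dotted lines at 1.5-fold. The red points lie mostly below 0, from -0.59 to 0.20, and Nars2 alone is past a dotted line.

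Among the cytosolic enzymes, 7 belong to the multisynthetase complex. The fused glutamate and proline enzyme Eprs went from 10.51 to 10.17, the arginine enzyme Rars from 11.16 to 10.88 and the lysine enzyme Kars from 11.25 to 11.05, differences of -0.35, -0.28 and -0.20. The glutamine enzyme Qars (-0.06), the methionine enzyme Mars1 (-0.04) and the isoleucine enzyme Iars (-0.02) lay closer to 0. The leucine enzyme Lars, also a leucine sensor for the growth kinase mTORC1, had a higher value at 3 h (10.45 and 10.71, difference 0.26). The complex members together had 6 lower and 1 higher, with a median of -0.06, where 48.5% of all genes were lower. After quantile normalization they had 5 lower and 2 higher, with Qars higher by 0.03. After removal of an intensity trend the counts were also 5 and 2, with Iars higher by 0.01. The scaffold genes of the complex were measured too: Aimp1 differed by 0.09, Aimp2 by -0.13 and Eef1e1, which encodes AIMP3, by 0.16.

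The 12 other cytosolic members at or above the floor had 4 lower and 8 higher, with a median of 0.03. Of all genes 48.5% were lower. The cysteine enzyme Cars was the synthetase with the highest difference, from 8.58 at 0 h to 9.14 at 3 h (1.48-fold), just short of 1.5-fold. The valine enzyme Vars, which binds elongation factor 1, was the lowest of the cytosolic group, from 9.79 to 9.33 (1.38-fold). The histidine enzyme Hars went from 10.87 to 10.62 (-0.25). These 3 were the only ones of the 12 that lay 0.1 or more from 0. Aars (-0.09), the glycine enzyme Gars (0.096), Nars for asparagine (0.06), Tars (0.06) and Tarsl2 (0.002) for threonine, Sars for serine (0.03), Farsb for phenylalanine (0.03) and Yars for tyrosine (0.02) differed by less. The probe sets of Aars and Farsb are of a kind that can match several genes.

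The tryptophan enzyme Wars, a known interferon-induced gene, had 8.63 at 0 h and 8.60 at 3 h, a difference of -0.03. Of 10 interferon-induced genes measured on the same arrays, 4 were at or above the floor at 0 h: Usp18 (2.81) and Irf9 (1.48) were higher and Bst2 (-0.36) and Irf1 (-0.25) lower, where 6.94% of all genes were at least 1.5-fold higher. Rsad2, Gbp2, Ifit1, Irf7 and Stat2 reached the floor through the 3 h array alone and so had to be higher. Over all 10, without the floor, 8 were higher and 2 lower, with a median of 1.67, where 49.8% of all genes were lower.

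The 5 genes whose windows hold the CARE letters shown above, Aars, Gars, Iars, Tars and Yars, had differences from -0.09 to 0.10, with a median of 0.02. The 7 cytosolic members at or above the floor with a window but no match had differences from -0.35 to 0.03, with a median of -0.04. Both groups lie close to 0, and no difference between them was tested. Atf4 itself, measured as messenger RNA, went from 12.01 to 11.86 (-0.15). ATF4 is controlled mainly at translation, which an array does not measure.

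Among the mitochondrial enzymes the asparagine enzyme Nars2 had the lowest difference, from 8.37 to 7.78 (1.51-fold lower), and 4.60% of all genes lay as low or lower. The cysteine enzyme Cars2 went from 7.34 to 6.86 (1.39-fold lower) and the threonine enzyme Tars2 from 8.0 to 7.56 (1.36-fold lower). The probe set of Tars2 is of a kind that can match several genes. The leucine enzyme Lars2 (9.0 and 8.62), the tyrosine enzyme Yars2 (8.24 and 7.87), the valine enzyme Vars2 (6.71 and 6.36) and the isoleucine enzyme Iars2 (9.01 and 8.67) followed, with differences from -0.38 to -0.34. These 7 genes make up the mitochondrial members lower by 0.3 or more.

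Next came the arginine enzyme Rars2 (-0.25), the glutamate enzyme Ears2 (-0.19), the alanine enzyme Aars2 (-0.18) and the phenylalanine enzyme Fars2 (-0.05). The tryptophan enzyme Wars2 stood at 7.43 on both arrays. The 3 higher at 3 h were the histidine enzyme Hars2 (7.64 and 7.84, difference 0.20), the serine enzyme Sars2 (0.097) and the proline enzyme Pars2 (0.07). The set as a whole therefore held members with lower values and members near 0, and no member was higher by more than 0.20. Mars2, below the floor, differed by 0.38.

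For 16 amino acids the cytosolic and the mitochondrial enzyme could be set side by side, 15 of them with both genes at or above the floor. Farsb stood for the cytosolic phenylalanine enzyme, and Eprs was used for both glutamate and proline. In 8 of the 15 the mitochondrial gene had the lower difference and in 7 the higher, with a median gap of -0.08. The gaps were uneven: 6 were -0.3 or lower and 2 were 0.3 or higher. The widest was for cysteine, at -1.04, where Cars was higher and Cars2 lower at 3 h. It was followed by asparagine (-0.66), leucine (-0.64), threonine (-0.50), tyrosine (-0.39) and isoleucine (-0.33).

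The 2 gaps of 0.3 or more in the opposite direction were histidine (0.45) and proline (0.42), where Hars and Eprs were lower and Hars2 and Pars2 higher. Since Hars and Hars2 are close paralogs, signal may be shared between their probe sets. For valine (0.12), serine (0.07), arginine (0.03), tryptophan (0.03), alanine (-0.09) and phenylalanine (-0.08) both genes had nearly the same difference, and for glutamate the gap was 0.16. For valine and arginine both genes were lower by 0.2 or more. Set beside its own partner, then, the mitochondrial gene was the lower as often as not, and the lower group median came with 6 amino acids of wide gap.

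**Figure D3:**
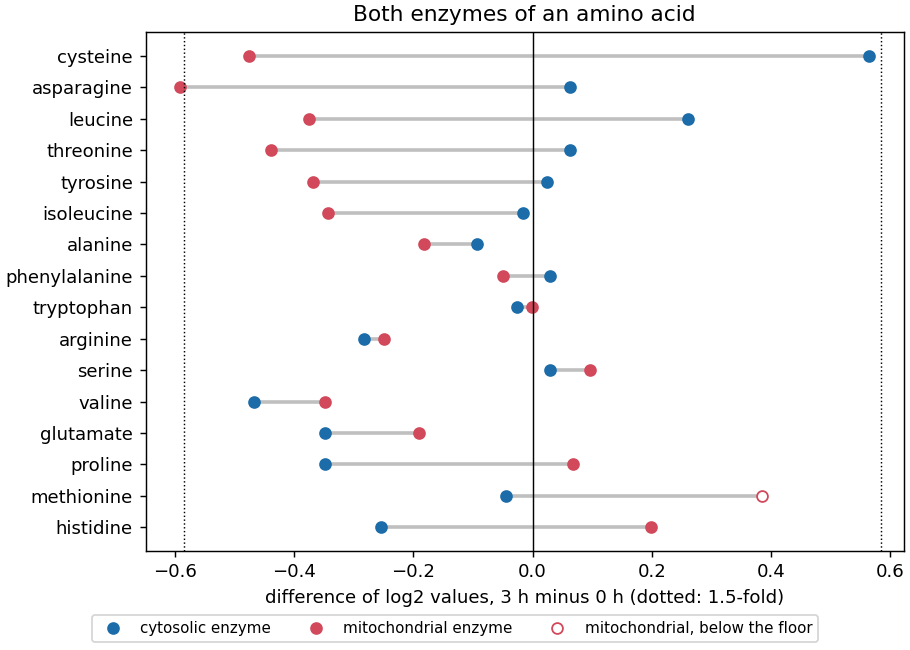
Difference of log2 values (3 h minus 0 h) of the cytosolic (blue) and the mitochondrial gene (red) for each of 16 amino acids, joined by a grey line and sorted by the gap, with dotted lines at 1.5-fold. The open circle is Mars2, below the floor. Red lies left of blue from cysteine down to phenylalanine, and right of it for the others.

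By structural class, a grouping from textbook knowledge made after the values were seen, all 8 mitochondrial enzymes of class I that passed the floor were lower, with a median of -0.35. Of these, Wars2 differed by less than 0.01. Mars2, also of class I but below the floor, differed by 0.38. Among all genes 48.5% were lower, and among those in the mitochondrial stretch of signal 47.5%. Of the 7 mitochondrial enzymes of class II 4 were lower, with a median of -0.05, although Nars2, the lowest member, is one of them. In the cytosolic group the medians were -0.03 for 9 enzymes of class I and 0.03 for 9 of class II, Eprs being left out because it holds a catalytic domain of each class.

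Of 11 other genes of mitochondrial protein synthesis at or above the floor 9 were lower and 2 higher, where 48.5% of all genes were lower. Of the 8 measured mitochondrial translation factors 7 were lower, with a median of -0.17, and the elongation factor gene Tufm, which delivers charged tRNA to the mitochondrial ribosome, was 1.52-fold lower (10.00 and 9.39). Mitochondria charge their glutamine tRNA with glutamate first and then amidate it. Of the genes of that amidotransferase, Gatc differed by -0.45, Gatb by -0.26 and Qrsl1 by 0.01, and Mtfmt, which formylates the initiator methionine, was below the floor (difference 0.52). Their median of -0.26 was -0.13 with no floor, which takes in Mtfmt. The 3 measured genes of cytosolic elongation factor 1, which takes over charged tRNA in the cytosol, had a median of -0.01, with Eef1d at -0.25 and Eef1b2 at 0.04.

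Enzymes that clear wrongly charged tRNA or make selenocysteine on tRNA were lower in 5 of 5 genes at or above the floor, where 48.5% of all genes were, with a median of -0.40. The measured list holds 1 more gene, Dtd2, which was below the floor and higher by 0.26. With it the median was -0.36. Dtd1, which removes D-amino acids from tRNA, differed by -0.43 and Aarsd1, which edits mischarged alanine tRNA, by -0.41. Genes of tRNA end processing, splicing and export were lower in 8 of 8, with a median of -0.16, led by the tRNA export receptor gene Xpot (-0.32) and the splicing endonuclease subunit gene Tsen15 (-0.30). No gene of these 2 lists at or above the floor reached 1.5-fold, where 4.80% of all genes were at least that much lower.

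RNA polymerase III, which transcribes tRNA genes, and its factors had a median of -0.03 over 20 genes. Of these 12 were lower and 8 higher, where 48.5% of all genes were lower. With the floor at the 75th percentile the median of the list was -0.14. The subunit gene Polr3g, typical of undifferentiated cells, was 1.58-fold lower (8.11 and 7.45), whereas its alternative Polr3gl differed by 0.01. Maf1, which represses this polymerase, differed by 0.33.

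The 21 genes of the ATF4 amino acid response at or above the floor had a median of -0.15. Of these 16 were lower and 5 higher, where 48.5% of all genes were lower. Trib3 (-1.12) and Atf3 (-1.20) were at least 2-fold lower, the arginine and lysine transporter gene Slc7a1 (-0.64) and the serine synthesis gene Psph (-0.60) at least 1.5-fold lower, and Chac1 (0.72) at least 1.5-fold higher. Of all genes 0.872% were at least 2-fold lower, 4.80% at least 1.5-fold lower and 6.94% at least 1.5-fold higher. Over all 25 measured genes of the list, without the floor, 17 were lower and 8 higher, with a median of -0.11. Without the floor 49.8% of all genes were lower. Asparagine synthetase, Asns, a sensitive ATF4 target, had 12.27 at 0 h and 12.29 at 3 h. Asns thus lay within 0.1 of 0, as did 16 of the 34 synthetases and 25.5% of all genes. Whether ATF4 acted on any of these genes was not tested.

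The eIF2 kinase genes were higher at 3 h. Eif2ak4, which encodes GCN2, the sensor of uncharged tRNA, went from 6.94 to 7.42 (0.48) and the haem-regulated kinase gene Eif2ak1 from 8.28 to 8.82 (0.54). Eif2ak2, an interferon-induced kinase gene, was 2.18-fold higher (6.07 and 7.19). Eif2ak3, which encodes the kinase PERK, differed by 0.26. The genes of the eIF2 phosphatase subunits differed less, Ppp1r15a by 0.05 and Ppp1r15b by -0.14. Of the 6 genes of kinases and phosphatase 5 were higher and 1 lower, where 48.5% of all genes were lower. Only Eif2ak2 passed 1.5-fold and 2-fold, where 6.94% and 2.00% of all genes were at least that much higher. The 6 genes together had a median of 0.37, which was 0.16 with the floor at the 75th percentile, where Eif2ak4 and Eif2ak2 are left out.

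**Figure D4:**
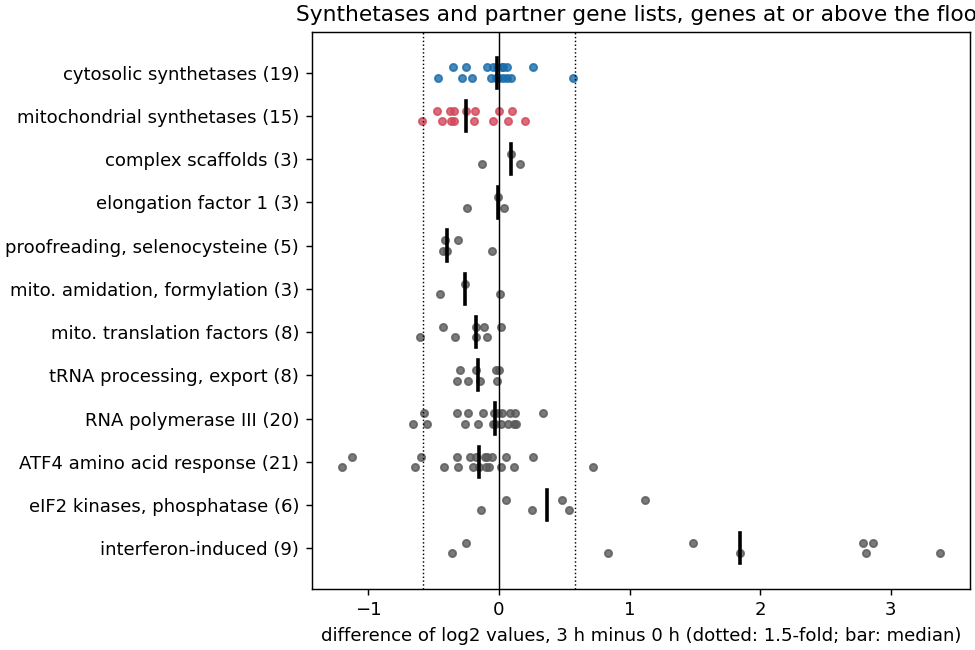
Difference of log2 values (3 h minus 0 h) for the cytosolic (blue) and mitochondrial synthetases (red) and for 10 lists of partner genes (grey), each point a gene at or above the floor, with the number of genes in brackets, bars at the medians and dotted lines at 1.5-fold. Medians run from -0.40 for proofreading and selenocysteine over -0.26 for amidation and formylation and -0.25 for the mitochondrial synthetases up to 1.85 for the interferon-induced genes, 5 of which passed the floor only through the 3 h array.

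The samples held markers of other cells, which differed between the arrays beside all of these results. Of the erythroid markers, 13 of 13 measured reached the floor, their mean level going from 8.82 to 9.38, with Klf1 (12.03 and 12.31) and Ermap (11.06 and 11.13) highest and Slc4a1 (2.83) and Nfe2 (1.11) differing most. Of these 13, 11 were higher and 2 lower, where 48.5% of all genes were lower. Slc4a1 reached the floor through the 3 h array alone and so had to be higher. The 2 lower were Epb42 (-0.68), at least 1.5-fold, and Epor (-0.19). Epor, deleted per the protocol, had 7.08 and 6.89, and Myc 9.41 and 9.68. All 18 measured hepatocyte markers reached the floor, with Afp and Alb highest, and their mean level went from 11.86 to 11.69. Of these 16 were lower, 3 of them at least 1.5-fold (Apob by -0.79, Apoc1 by -0.75 and Hnf4a by -0.70), and Krt8 (0.95) and Krt18 (0.88) were higher. Of all genes 48.5% were lower and 4.80% at least 1.5-fold lower. In every list the mean is taken over all measured markers, since some reached the floor through the 3 h array alone. Without the floor, 49.8% of all 17874 genes were lower. Granulocyte and mast cell markers went from 6.11 to 6.81 over 16 genes, 13 higher and 3 lower, with Mpo and S100a9 highest and S100a9 (1.94) and S100a8 (1.70) differing most. Of these 16, 10 reached the floor, 3 of them through the 3 h array alone. The 3 lower, Csf3r (-0.53), Cma1 (-0.39) and Mcpt8 (-0.06), were below the floor on both arrays. Of the mast cell markers Cpa3 (0.45) reached the floor, while Ms4a2 and Fcer1a did not. Macrophage markers went from 5.64 to 6.00 over 13 genes, 9 higher and 4 lower. Lyz2 (1.83) and Csf1r (0.997) were higher and Vcam1 (-0.98) lower, while C1qa, C1qb, C1qc, Itgam and Mrc1 were among those below the floor on both arrays. Megakaryocyte markers (5 genes) went from 5.26 to 5.77, 3 higher and 2 lower, with a median difference of 0.065. Gp1bb (2.19), which reached the floor through the 3 h array alone, differed most. Lymphoid markers (9 genes) went from 4.67 to 4.85, 5 higher and 4 lower, and 2 of the 9 reached the floor. The part of these cells in the differences of the synthetases was not tested. In a bulk sample, fewer cells of a type and less RNA per cell cannot be told apart.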

How the data were processed

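Biotinylated cRNA from 1.5 µg of total RNA was hybridised, per the labels' protocols. The deposited log2 values were made by the authors with RMA in the affy package, per the submitters' processing notes. Versions and the set of arrays normalized together were not given in the sources used here. Because RMA equalises the distributions of arrays, a change common to all transcripts is invisible in these values, and differences between dim signals are compressed. Arrays have no depth, and their number limits the precision.

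The table holds 20666 probe sets: 17918 had 1 gene in the platform annotation, 79 several and 2669 none. Where a gene had several probe sets, their mean was used. All 36 members matched RefSeq genes of GRCm38.p6 by Entrez ID, with 0 symbols changed. The values were used as deposited, with a floor at the median of all gene values (5.70) and thresholds of 1.5-fold and 2-fold. No test could be made with 1 array per time. The members, lists and thresholds were chosen with earlier results of these data known. All synthetases are named; of partner lists, genes past 1.5-fold or otherwise the 2 largest absolute differences; of marker lists, up to 2 of the highest and 2 of the largest differences; and Epor, Atf4 and Myc. Mtfmt, Asns, Qrsl1, Polr3gl, Maf1, Eif2ak1, Eif2ak3, Eif2ak4, Ppp1r15a, Ppp1r15b, Apob, Apoc1, Hnf4a, Epb42, Vcam1, Aimp1, Bst2, Irf1 and the macrophage markers below the floor were named after their values were seen.

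Alternatives were quantile normalization of both columns, removal of an intensity trend (loess, span 0.3), the brightest probe set, probe sets without the suffixes _s_at, _x_at and _a_at, no floor, a floor at the 75th percentile (7.96), means, and other places for Tarsl2, Kars and Gars. Protein motifs were not analysed here. Other promoter matches are not reported here as sequence. The steps were tested on simulated data. Python 3.11.15, numpy 2.4.6, pandas 2.3.3, statsmodels 0.14.6 and matplotlib 3.10.9 were used.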

Additional observations from a re-analysis of the deposited data

How the results depend on the processing

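No paired analysis was possible because each time has 1 array, and no replicate could be left out. The mitochondrial median stayed between -0.37 and -0.22 under every alternative run, and the cytosolic one between -0.02 and 0.002. With means in place of medians the values were -0.22 and -0.03. Differences under quantile normalization or removal of an intensity trend moved each named synthetase by less than 0.1. Of 148 medians and counts recomputed, 138 moved by less than 0.1 (counts by less than 1.5 times) and 10 by more. Some of the 138 could not move. Each member and listed gene has 1 probe set, so taking the brightest changed none of their values, and counts do not depend on the use of means. With the floor at the 75th percentile, 7 of the 15 mitochondrial members were left, and all 7 were lower. Of these 7, Nars2, Tars2 and Yars2 reached that floor through the 0 h array alone and so had to be lower. The mitochondrial median there was -0.37 and its gap to the cytosolic median -0.35. At that floor the medians were -0.14 for RNA polymerase III, 0.16 for the eIF2 kinases and phosphatase subunits together and 1.48 for interferon-induced genes. With no floor they were -0.13 for mitochondrial amidation and formylation and 1.67 for interferon-induced genes. For the latter the median of 1.85 was 2.79 without suffixed probe sets, and the mean was 1.71. All of these follow from fewer or more genes being counted, or from the mean. Signals near the floor limit Farsa, Mars2 and Mtfmt.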

Other observations

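A few members of the family lie near each other in the genome, as read from the order of protein-coding genes in the RefSeq table of GRCm38.p6. Hars and Hars2, known to be read outward from a shared promoter region, have 0 such genes between them and overlap at their ends, yet Hars was lower (difference -0.25) and Hars2 higher (0.20) at 3 h. Iars2 and Eprs have 1 gene, Bpnt1, between them and gave nearly the same difference, -0.34 and -0.35. No other members had 2 or fewer protein-coding genes between them. With 1 array per time these values have no error, and no relation between neighbours was tested.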
